A study of Rattus norvegicus with 6 samples.

Results

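10 genes that intercalated cells use to move acid and base were followed in the renal cortex of rats given o-anthranilic acid. They were chosen by name, as all non-control probes whose accession maps to Atp6v1g3, Atp6v0d2, Atp6v1b1, Atp6v1c2, Slc4a1, Slc26a4, Slc4a9, Foxi1, Rhcg or Car2. That gave 17 of the 61657 non-control probes and 10 of 15277 named genes. The treated group was 3 male Sprague-Dawley (Crl:CD(SD)) rats dosed over 4 weeks with 1000 mg/kg/day of o-anthranilic acid. The vehicle group was 3 male rats of the same strain given corn oil over the same time. All rats were bought at 5 weeks of age, kept on a basal diet with tap water, and no allele or transgene is named for either group. The route of dosing is not given in the sources used here. Cy3-labelled cRNA from each rat's cortex was read on an Agilent array of its own.

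Intercalated cells are scattered among the principal cells of the connecting tubule and collecting duct. Type A cells secrete acid: a proton pump in the membrane facing the urine pumps protons out, carbonic anhydrase makes the protons and bicarbonate from water and carbon dioxide, and an anion exchanger returns the bicarbonate to the blood. Type B cells work the other way round and secrete bicarbonate into the urine through pendrin in exchange for chloride. The forkhead factor Foxi1 is required in the mouse for both types to form. o-Anthranilic acid is ortho-aminobenzoic acid, an organic acid that is also a by-product of tryptophan breakdown.

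The treated arrays had 63.6% to 68.2% of probes well above background, against 65.9% to 69.3% on the vehicle arrays, and no spot was saturated. Values are the log2 of the processed spot signal minus the 75th percentile of the same array, so 0 is the signal that 75% of probes stay below. Probes differ in how brightly they bind, and levels of different genes are therefore not set against each other. Each gene was read from its probe with the highest mean signal. All 17 probes of the 10 genes were well above background on all 6 arrays, so each gene gave a signal in every animal. In whole cortex that signal can come from any cell that holds the gene. Treated replicate 2 was alone on a second slide, which was scanned separately, and the other 5 arrays shared 1 slide. The animals are separate rats, so the spread between arrays holds both biological and technical variation, and the number of arrays limits the precision of each value.

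None of the 10 genes differed between treated and vehicle rats by limma with Benjamini-Hochberg adjustment over 30709 features at a threshold of 0.05. The same test called 0% of all features. None of the 10 had an unadjusted p under 0.05, a level reached by 2548 features, or 8.30% of all tested (3.46% higher and 4.84% lower in treated rats). That count of members depends on the settings: Slc26a4 was below 0.05 with normexp background correction and with a robust fit that models a trend in the variance, and Foxi1 without treated replicate 3. Log2 fold changes (treated minus vehicle) were above 0 for 4 genes and below 0 for 6, with a median of -0.05, against -0.01 over all features. The treated and vehicle arrays failed to overlap for 1 of the 10, Slc26a4, which was lower in treated rats. Over all features the groups did not overlap for 14.7%, and 8.31% were lower in treated without overlap. The 95% interval of the log2 fold change lay within 0.5 of 0 for 7 of the 10 genes; Slc4a1, Slc4a9 and Foxi1 were the exceptions. In whole-cortex RNA, fewer intercalated cells and less RNA in each of them cannot be told apart.

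**Figure D1:**
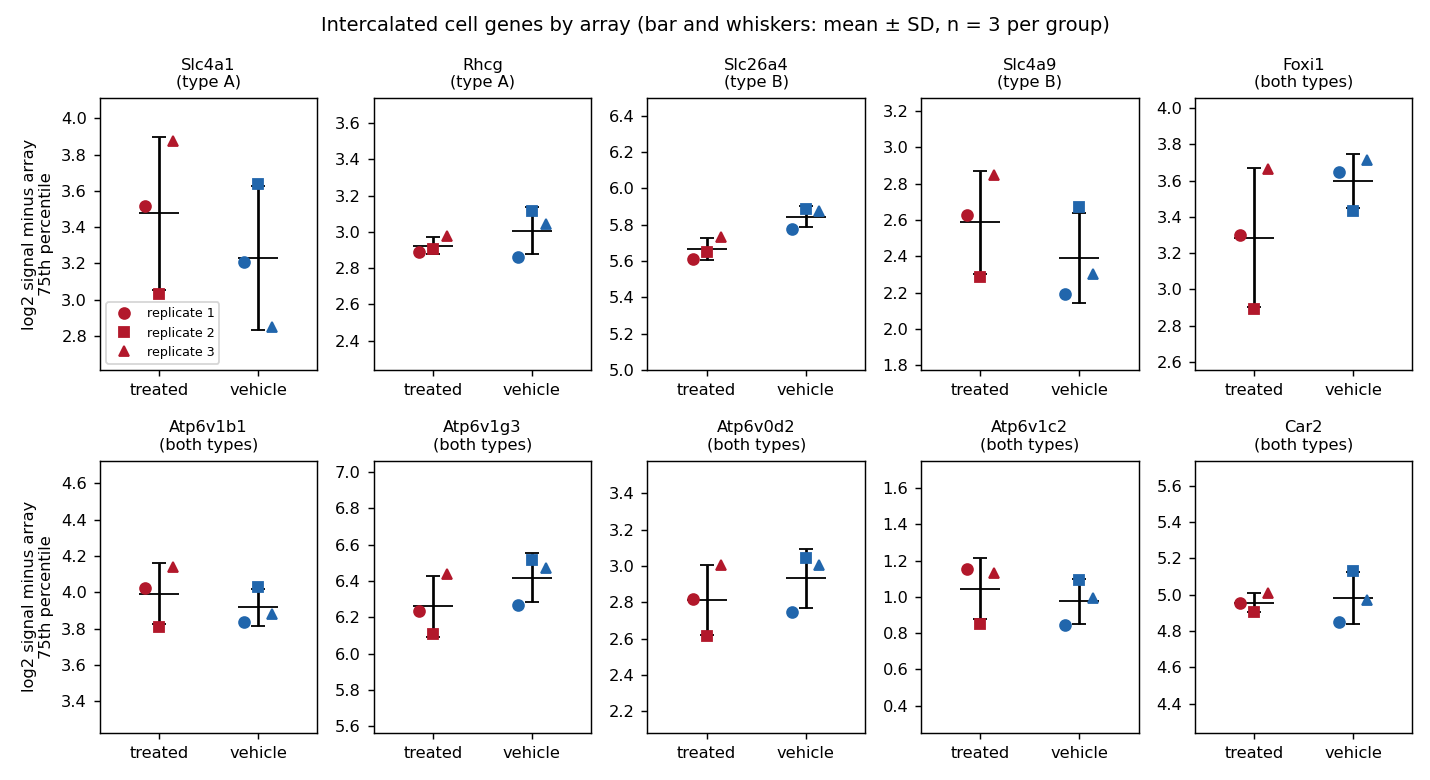
Normalised log2 signal (log2 processed signal minus the array's 75th percentile, y axis, the same span in every panel) of the 10 genes on the 3 treated (red) and 3 vehicle (blue) arrays, with mean and SD. In Slc26a4 the treated values of 5.61 to 5.73 lie below the vehicle values of 5.78 to 5.88, and in the other 9 genes the groups overlap.

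Slc4a1 (NM_012651) encodes the anion exchanger that carries bicarbonate out of type A cells on the blood side and is the defining gene of that type. It is also the main membrane protein of red cells, where it is called band 3, and which of the red cell and kidney transcripts its probes read was not worked out. Its normalised log2 signal was 3.52, 3.03 and 3.88 in treated replicates 1, 2 and 3, against 3.21, 3.64 and 2.85 in vehicle replicates 1, 2 and 3. Both groups covered a wide and shared range, with the highest value on a treated array and the lowest on a vehicle array. The log2 fold change was 0.25 ± 0.28 (SE, n = 3 per group), with a 95% interval from -0.43 to 0.92 and a limma adjusted p of 0.837. Single animals moved it: it stood at 0.04 without treated replicate 3 and 0.05 without vehicle replicate 3, and at 0.47 without treated replicate 2 and 0.45 without vehicle replicate 2. A second Slc4a1 probe gave 0.29 ± 0.24 and the same order of the arrays for the 3 highest, treated replicate 3, vehicle replicate 2 and treated replicate 1.

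Rhcg (NM_183053), an ammonia channel that type A cells share with principal cells, varied much less. It stood at 2.89, 2.91 and 2.98 on the treated arrays, against 2.86, 3.12 and 3.04 on the vehicle arrays. The treated values lay inside the vehicle range. The log2 fold change was -0.08 ± 0.09 (SE), with a 95% interval from -0.30 to 0.14.

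Slc26a4 (NM_019214) encodes pendrin, the apical exchanger of chloride for bicarbonate that defines type B cells. Its normalised log2 signal was 5.61, 5.65 and 5.73 in treated rats, against 5.78, 5.88 and 5.87 in vehicle rats. Every treated array was below every vehicle array. The log2 fold change was -0.18 ± 0.08 (SE, n = 3 per group), a treated level at 0.883 of the vehicle level, with a 95% interval from -0.36 to 0.00 and a limma adjusted p of 0.601. The other Slc26a4 probe had a log2 fold change of -0.12 ± 0.11, and its groups overlapped: it stood at 2.58, 2.75 and 2.89 on the treated arrays and at 2.77, 2.98 and 2.83 on the vehicle arrays. Over the 19 other settings of the analysis the fold change of the gene stayed between -0.22 and -0.15, and its smallest adjusted p was 0.521.

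Slc4a9 (NM_152938) encodes the basolateral transporter known from the mouse as the partner of pendrin in type B cells. Its signal was 2.63, 2.29 and 2.85 in treated rats, against 2.19, 2.67 and 2.30 in vehicle rats, and the groups overlapped. The log2 fold change was 0.20 ± 0.19 (SE), with a 95% interval from -0.26 to 0.65 and a limma adjusted p of 0.799. A second probe gave 0.18 ± 0.20. The gene stood at 0.07 without treated replicate 3 and 0.10 without vehicle replicate 1, and at 0.35 without treated replicate 2 and 0.34 without vehicle replicate 2.

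Type A was set against type B on each array as the log2 signal of Slc4a1 minus the mean of Slc26a4 and Slc4a9, each first expressed relative to its own vehicle mean. This difference was 0.28, -0.05 and 0.47 in treated replicates 1, 2 and 3, against 0.11, 0.25 and -0.35 in vehicle replicates 1, 2 and 3. The groups overlapped, and the treated mean of 0.24 was smaller than the SD within either group, 0.26 in treated and 0.31 in vehicle rats. The difference was 0.06 without vehicle replicate 3, 0.12 without treated replicate 3, 0.36 without vehicle replicate 2 and 0.38 without treated replicate 2. The value depended on which type B gene was used. The treated mean was 0.42 for Slc4a1 minus Slc26a4 and 0.05 for Slc4a1 minus Slc4a9, and the groups overlapped for both. The type B genes were no closer to each other: Slc4a9 minus Slc26a4 was 0.47, 0.09 and 0.57 on the treated arrays, with a mean of 0.38, and -0.13, 0.24 and -0.11 on the vehicle arrays. With Rhcg included, the mean of both type A genes was 0.08, -0.15 and 0.31 on the treated arrays and -0.08, 0.26 and -0.17 on the vehicle arrays. The mean of both type B genes was 0.00, -0.15 and 0.17 on the treated arrays and -0.13, 0.16 and -0.03 on the vehicle arrays. On this measure the treated means were 0.08 for type A and 0.01 for type B, closer together than with Slc4a1 alone, and the groups overlapped for both. These differences between members carry no test, because the genes were chosen with earlier results of these data known.

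What set the members apart from each other was their spread between arrays of 1 group. The SD pooled within groups was 0.41 for Slc4a1, 0.29 for Foxi1 and 0.27 for Slc4a9, above the upper quartile of 0.24 over all features. For Foxi1 the SD was 0.38 in the treated group, which holds replicate 2 on the second slide, and 0.15 in the vehicle group. Slc26a4, at 0.06, and Rhcg, at 0.10, lay below the median of 0.14. Slc4a1 and Slc4a9, of opposite cell types, were highest on the same 3 arrays, while the order of their lower arrays differed. Relative to its vehicle mean Slc4a1 stood at 0.29, -0.20 and 0.65 on the treated arrays and at -0.02, 0.41 and -0.38 on the vehicle arrays. Slc4a9 stood at 0.24, -0.10 and 0.46, and at -0.19, 0.28 and -0.09. Treated replicate 3 was highest, then vehicle replicate 2, then treated replicate 1 for both genes, but Slc4a1 was lowest on vehicle replicate 3 and Slc4a9 on vehicle replicate 1. Atp6v1b1, a gene of both types, had the same top 3 in the same order over a narrower range, at 0.22, 0.11 and 0.11. Dmrt2, a transcription factor gene of type A cells in the mouse, did so too, at 0.43, 0.22 and 0.22. Kit, a receptor gene also found in mouse type A cells, had treated replicate 3 and vehicle replicate 2 highest, at 0.50 and 0.32. These resemblances over 6 arrays were noticed after the values were seen and carry no test.

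Because red cells also hold Slc4a1 and carbonic anhydrase, markers of red cells were read beside them. All 7 tested erythrocyte genes of 11 listed had log2 fold changes above 0, with a median of 0.43, and 4 had an unadjusted p under 0.05, against the 3.46% of all features that were higher at that level. None was called. Alas2, the first enzyme of haem synthesis in red cell precursors, stood 0.62 ± 0.16 (SE) higher on the log2 scale without overlap, and Epb42, a protein that binds band 3, at 0.14 ± 0.25. The mean of the list relative to vehicle was 0.35, 0.49 and 0.57 on the treated arrays and -0.03, -0.01 and 0.03 on the vehicle arrays, without overlap. Gene by gene, only 1 of the 7, Alas2, had groups that did not overlap, against 6.39% of all features that were higher without overlap. Among vehicle arrays the order differed as well: Hba-a1, an alpha globin gene, was highest on replicate 3, at 8.55 against 8.16 and 8.22, the array on which Slc4a1 was lowest. The part of red cell RNA in the Slc4a1 signal was not tested.

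**Figure D2:**
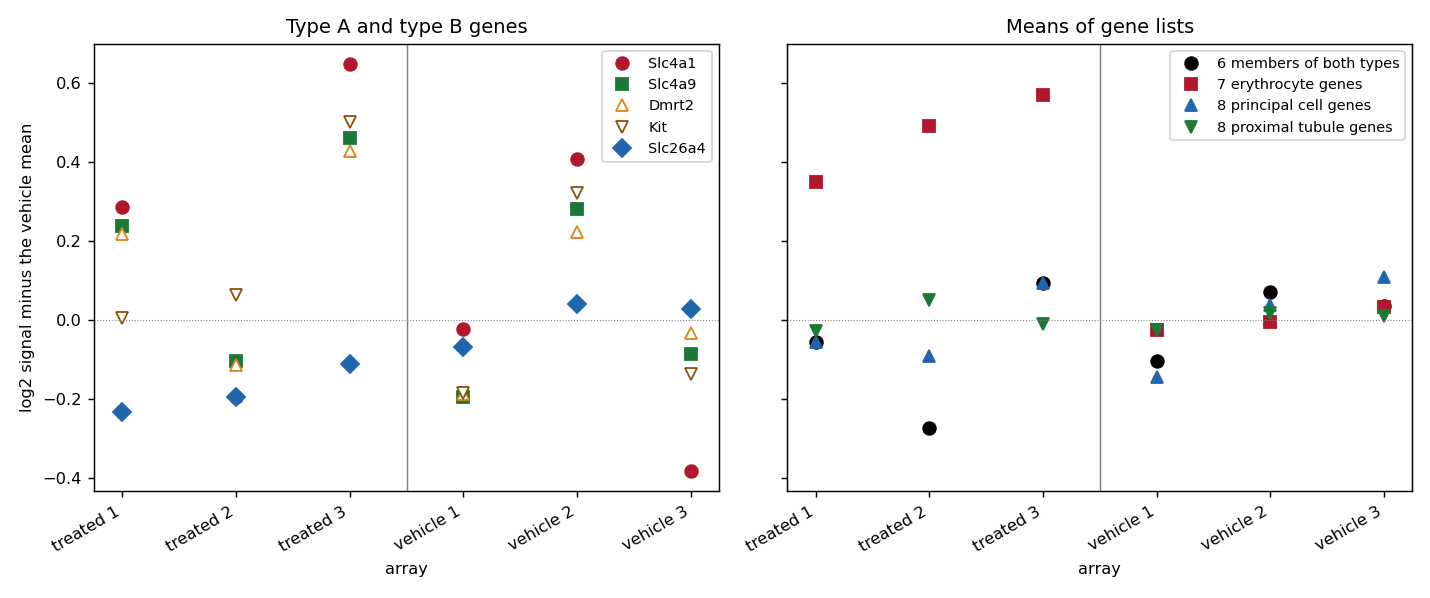
Left, log2 signal relative to the gene's vehicle mean (y axis) on each of the 6 arrays (x axis) for Slc4a1, Slc4a9, Slc26a4 (filled), Dmrt2 and Kit (open); right, the mean of all tested genes of 4 lists on the same scale; on treated replicate 2 the Slc4a1 point, at -0.20, lies under that of Slc26a4. Slc4a1 and Slc4a9 are highest on treated replicate 3 and vehicle replicate 2, while Slc26a4 is low on all 3 treated arrays and the mean of the erythrocyte genes is high on all 3.

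Foxi1 (NM_001105776), the transcription factor that turns on several of the other genes in the mouse, had the lowest fold change of the 10. Its signal was 3.30, 2.89 and 3.66 in treated rats, against 3.65, 3.43 and 3.72 in vehicle rats. Treated replicate 2 was lowest, and treated replicate 3 lay within the vehicle range, so the groups overlapped. Its log2 fold change was -0.31 ± 0.20 (SE), with a 95% interval from -0.80 to 0.18 and a limma adjusted p of 0.708. The other 2 Foxi1 probes gave -0.32 ± 0.22 and -0.22 ± 0.18. Without treated replicate 2, the array on the second slide, it was -0.12, and without treated replicate 3 it was -0.50.

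The proton pump, or V-ATPase, is built from a cytosolic sector that splits ATP and a membrane sector that passes protons. Several of its subunits exist in a form kept for intercalated cells and a few other acid-secreting cells beside a form found in most cells. Atp6v1b1 (NM_001107867) encodes the intercalated form of the B subunit, which takes part in ATP binding. It stood at 4.03, 3.81 and 4.14 on the treated arrays, against 3.84, 4.03 and 3.88 on the vehicle arrays, with full overlap. This gave a log2 fold change of 0.08 ± 0.11 (SE), and a second, dimmer probe gave -0.03 ± 0.13, the only sign difference between probes of 1 gene among the 6 genes with more than 1 probe. Atp6v1g3 (NM_001105991), the intercalated form of the G subunit in the stalk, stood at 6.24, 6.11 and 6.44 on the treated arrays, against 6.27, 6.52 and 6.47 on the vehicle arrays. Only treated replicate 3 reached the vehicle range. Its probes gave log2 fold changes of -0.16 ± 0.12 and -0.23 ± 0.10.

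Atp6v0d2 (NM_001011972), a d subunit that joins both sectors and is also known from osteoclasts and macrophages, stood at 2.82, 2.62 and 3.00 in treated rats, against 2.75, 3.04 and 3.01 in vehicle rats. The groups overlapped, and its log2 fold change was -0.12 ± 0.13 (SE). The macrophage list had a median of -0.18 over 9 tested genes, with means relative to vehicle from -0.48 to 0.05 on the treated arrays and from -0.03 to 0.02 on the vehicle arrays. The part of macrophage RNA in the Atp6v0d2 signal was not tested. Atp6v1c2 (NM_001014199), a C subunit, stood at 1.16, 0.85 and 1.13 on the treated arrays, against 0.85, 1.09 and 0.99 on the vehicle arrays, with overlap and a log2 fold change of 0.07 ± 0.12. Car2 (NM_019291), the cytosolic carbonic anhydrase that the proximal tubule and red cells also hold, stood at 4.95, 4.90 and 5.01 in treated rats, against 4.85, 5.13 and 4.97 in vehicle rats. All 3 treated values lay inside the vehicle range, and the log2 fold change of -0.03 ± 0.09 was the closest to 0 of the 10, with a 95% interval from -0.26 to 0.20.

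Treated replicate 2 was the lowest of the treated arrays for 8 of the 10 genes and the lowest of all arrays for 4. The share of all features lowest on that array was not worked out, so these counts have nothing to be set against. The mean of the 6 genes of both types relative to vehicle was -0.06, -0.27 and 0.09 on the treated arrays and -0.11, 0.07 and 0.04 on the vehicle arrays. On the same array the means were -0.09 for 8 principal cell genes, -0.17 for 5 connecting tubule genes and 0.05 for 8 proximal tubule genes. Other lists lay on both sides of 0 there. Their means were -0.21 for 6 endothelium genes, -0.16 for 6 thick ascending limb genes and -0.15 for 5 podocyte genes. The lowest was -0.31, for 4 inner medulla genes. Above 0 were 0.02 for 3 distal convoluted tubule genes, 0.05 for 9 macrophage genes and 0.49 for 7 erythrocyte genes. The thick ascending limb list was lower on treated replicate 3, at -0.21, and vehicle replicate 2, at -0.19. The podocyte list was lower on treated replicate 1, at -0.23. Without treated replicate 2 the median log2 fold change of the 10 members was -0.01. Slide and animal cannot be told apart for treated replicate 2.

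**Figure D3:**
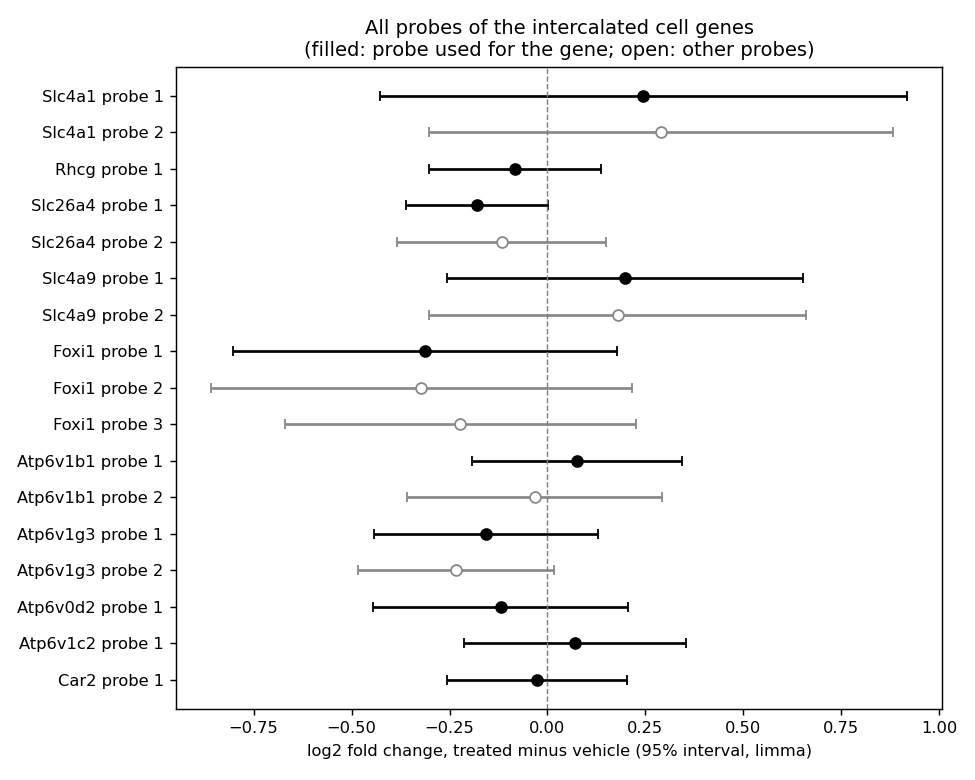
Log2 fold change (treated minus vehicle, x axis) with its 95% limma interval for each of the 17 probes, filled for the probe that represents the gene and open for the others. All 17 intervals include 0, and the intervals of Slc4a1, Foxi1 and Slc4a9 are the widest.

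Since Foxi1 is itself one of the members, the start regions of the members, Foxi1 included, were searched for the forkhead core. The forms GTAAACA and ATAAACA were sought on both strands. RefSeq's table (GRCr8) held 7 of the 10 genes, and the 250 bases before the transcript start were read. Those of Atp6v1b1 and Atp6v1g3 are printed because each holds 1 match, shown in capitals as it reads on the gene's strand (TGTTTAC and TGTTTAT, the reverse complements). They lie at chr4:117781194-117781443 and chr13:52362082-52362331, both on the plus strand.
Atp6v1b1: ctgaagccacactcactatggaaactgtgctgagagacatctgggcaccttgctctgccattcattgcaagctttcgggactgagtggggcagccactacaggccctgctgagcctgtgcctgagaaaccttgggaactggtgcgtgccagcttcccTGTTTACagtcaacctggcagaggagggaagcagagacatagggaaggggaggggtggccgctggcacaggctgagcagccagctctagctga
Atp6v1g3: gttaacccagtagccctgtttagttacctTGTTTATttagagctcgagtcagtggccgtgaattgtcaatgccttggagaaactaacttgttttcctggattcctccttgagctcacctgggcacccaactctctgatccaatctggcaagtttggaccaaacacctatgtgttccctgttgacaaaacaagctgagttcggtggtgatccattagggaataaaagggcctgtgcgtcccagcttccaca
The match begins at position -93 from the transcript start in Atp6v1b1 and at -221 in Atp6v1g3. Of 33469 promoters in the table, 7.08% held either form in the same window. The windows of Slc26a4, Slc4a9, Foxi1, Rhcg and Atp6v1c2 held neither form, which says only that these letters are not there. The log2 fold changes were 0.08 ± 0.11 for Atp6v1b1 and -0.16 ± 0.12 for Atp6v1g3 (SE), beside -0.31 ± 0.20 for Foxi1.

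Other genes of the same cells gave a similar picture, with exceptions of larger size. Of 4 further type A genes, 3 had log2 fold changes above 0, with a median of 0.18. Aqp6 (NM_022181), a water and anion channel of type A cell vesicles, stood at -2.64, -2.62 and -2.51 on the treated arrays, against -2.90, -2.66 and -2.90 on the vehicle arrays. Every treated array was above every vehicle array, with a log2 fold change of 0.24 ± 0.10 (SE) and a limma adjusted p of 0.595. A second Aqp6 probe gave 0.17 ± 0.19, with overlap. Hmx2, a homeobox gene, had the only negative value among the 4, at -0.23 ± 0.11, and its other probe stood at 0.07. Dmrt2 and Kit stood at 0.18 ± 0.17 and 0.19 ± 0.19, and a dimmer Kit probe at 0.02 ± 0.32.

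Of 4 further type B genes, 2 lay above 0 and 2 below, with a median of 0.00. Insrr, a receptor related to the insulin receptor that responds to alkaline pH, stood at -0.20 ± 0.12 (SE), and its other probes at -0.22 ± 0.12 and 0.02 ± 0.13. Oxgr1, the receptor for oxoglutarate, stood at -0.06 ± 0.11, but a second probe gave -0.35 ± 0.16, and the value was -0.21 both with the probes averaged and with normexp background correction. Slc4a8, a sodium-driven exchanger, stood at 0.06 ± 0.10, but a second, dimmer probe gave -0.63 ± 0.17 without overlap, so the probes of this gene disagreed. Spink8 stood at 0.37 ± 0.35 because of treated replicate 1, at -2.65 against -4.06 and -3.71 on the other treated arrays and -3.93 to -3.74 on the vehicle arrays.

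Among 13 remaining intercalated genes 12 were tested, 5 above 0 and 7 below, with a median of -0.03 on the log2 scale. Slc26a7 (NM_001106638), a chloride and bicarbonate exchanger known from type A cells of the outer medulla in the rat, passed the filter on low values only through the vehicle arrays. Its only probe was dim, at -6.15, -5.86 and -6.09 on the treated arrays, where it was not well above background, against -5.38, -5.01 and -4.87 on the vehicle arrays, where it was. The measured means of -6.03 in treated and -5.09 in vehicle rats give only a bound, which was at least 1.33-fold lower in treated rats on this scaling. The gene was not called, with a limma adjusted p of 0.386 for the measured values. The bound takes, for each treated array, the lowest signal of any probe well above background in place of a dimmer value. It is tied to the processing: with normexp background correction the log2 fold change was -0.26, a smaller difference than the bound, against -0.95 in the fit reported here. Bsnd, the subunit of basolateral chloride channels, stood at -0.18 ± 0.10 (SE), with a second probe at -0.05 ± 0.09. Tfcp2l1, a transcription factor of the collecting duct, stood at -0.19 ± 0.15, with a second probe at -0.27 ± 0.16. Atp4a, the catalytic subunit of the gastric-type proton pump, stood at -0.10 ± 0.08, but a second, dimmer probe gave 0.73 ± 0.51, and the mean of both probes 0.32.

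Pump subunits found in most cells, of which 18 of 20 listed were tested, had 5 values above 0 and 13 below, with a median of -0.08. Atp6v0a1 (NM_031604), an a subunit of the membrane sector, went the other way. It stood at 2.86, 2.75 and 2.75 in treated rats, against 2.47, 2.51 and 2.31 in vehicle rats, with a log2 fold change of 0.36 ± 0.09 (SE) and a limma adjusted p of 0.476. Its groups did not overlap, and its other probes gave 0.26 ± 0.11, without overlap, and 0.02 ± 0.08. Atp6v1e1 (NM_198745), the E subunit of the stalk, stood at 2.10, 2.05 and 1.95 on the treated arrays, against 2.26, 2.19 and 2.26 on the vehicle arrays, a log2 fold change of -0.21 ± 0.08. Atp6v1a, the catalytic subunit, and Atp6v1g1, the common G subunit, also had every treated array below every vehicle array, at -0.15 ± 0.07 and -0.13 ± 0.07. The other Atp6v1a probes gave -0.16 ± 0.09 and -0.11 ± 0.08, both with overlap. In all, 4 of the 18 were lower and 1 higher without overlap, against 8.31% and 6.39% of all features.

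The proximal tubule handles most of the filtered bicarbonate and makes ammonia from glutamine, and its acid-base genes were read for comparison. Of 13 listed, 12 were tested, 6 above 0 and 6 below, with a median of 0.00. Slc38a3 (NM_145776), the basolateral glutamine carrier, stood at 0.55, 0.43 and -0.05 in treated rats, against -0.37, -1.16 and -0.86 in vehicle rats. All treated arrays were higher, by 1.11 ± 0.25 (SE) on the log2 scale and 2.15-fold on the linear scale, with a limma adjusted p of 0.459. Pck1 (NM_198780), the gluconeogenic enzyme downstream of glutamine use, lay in the other direction: 7.37, 7.63 and 7.68 in treated rats, against 7.70, 7.88 and 7.93 in vehicle rats. Its log2 fold change was -0.28 ± 0.12, and a second probe gave -0.35 ± 0.12, both without overlap. Slc26a6, an apical anion exchanger, stood at 0.28 ± 0.12, and Car14, a membrane carbonic anhydrase, at -0.19 ± 0.14. None of these was called. The mean of the list was 0.10, 0.12 and 0.03 on the treated arrays and -0.01, 0.03 and -0.02 on the vehicle arrays, without overlap. Without Slc38a3 the other 11 genes gave -0.01, 0.02 and -0.03 on the treated arrays and -0.05, 0.06 and -0.01 on the vehicle arrays, so the separation rested on that gene.

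**Figure D4:**
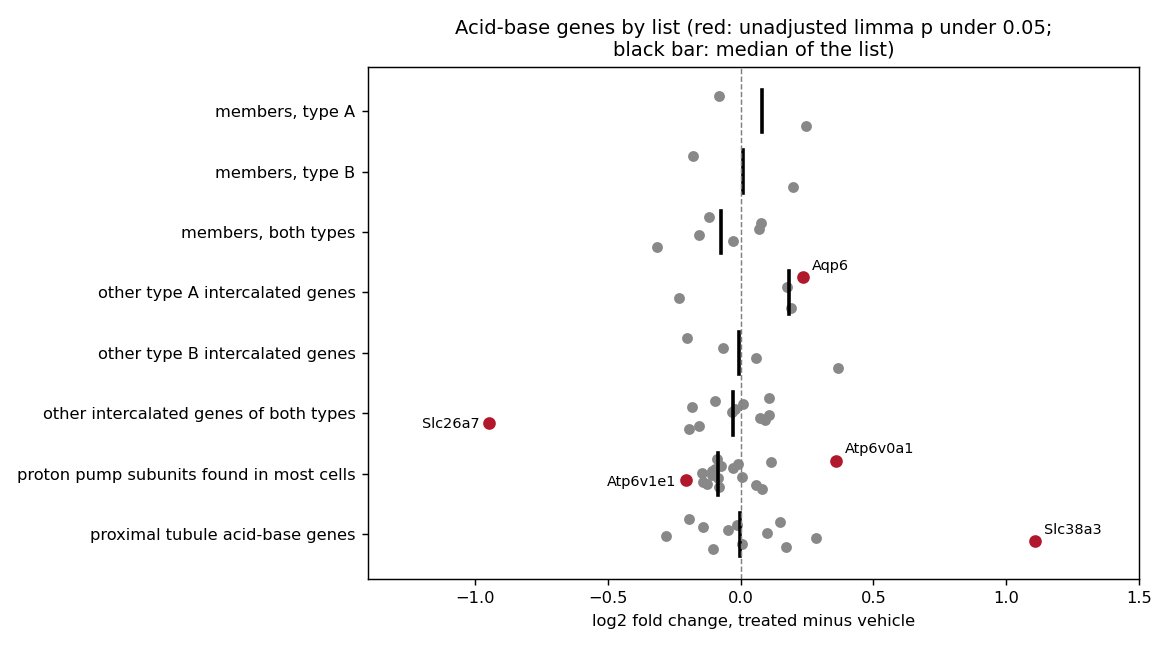
Log2 fold changes (treated minus vehicle, x axis) of every tested gene of the 8 acid-base lists, with the list median as a bar and genes with an unadjusted limma p under 0.05 in red and named. The 10 members lie between -0.31 and 0.25; Slc26a7, whose treated signal is not well above background, and Slc38a3, at 1.11, lie farthest out.

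Markers of neighbouring cells were read in the same way. The 8 tested principal cell genes had a median of -0.05 on the log2 scale, the same as the 10 members, with 1 above 0 and 7 below. Aqp2, the water channel of principal cells, stood at -0.21 ± 0.10 (SE), and Aqp4 at 0.52 ± 0.18. The 8 proximal tubule genes had a median of 0.00, and the 6 tested thick ascending limb genes of -0.13. Array means of the principal cell list ran from -0.09 to 0.09 in treated and from -0.15 to 0.11 in vehicle rats. The list of 4 inner medulla genes ranged from -0.31 to 0.25 on the treated arrays and from -0.17 to 0.13 on the vehicle arrays, with treated replicate 3 highest and treated replicate 2 lowest. The 6 members of both types had the same highest and lowest arrays, but among vehicle arrays replicate 2 was highest for them, at 0.07, and lowest for the inner medulla list, at -0.17. The part of a varying share of medulla in the dissected tissue was not tested.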

How the data were processed

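Renal cortex RNA of 3 treated and 3 vehicle rats was measured on 1-colour Agilent arrays. The deposited scanner files hold spot intensity on a linear scale, background-subtracted and detrended but not normalised between arrays, per the file headers (made with Feature Extraction version 10.7 of Agilent, which the submitters' processing notes name). The value table that the authors deposited gives, for each probe, a ratio; set against the scanner files, it is the processed signal over the array's 75th percentile, not centred per probe. Its column medians were 0.106, 0.104 and 0.103 for treated and 0.104, 0.106 and 0.103 for vehicle samples. Its columns match scanner files of the same group but of another replicate number. Replicates are named by scanner file, and which numbering holds is unknown.

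External controls (84 probes) and probes with an outlier flag (47) were left out, and 61526 probes were used. RefSeq accessions named 27435 of them and left 34091 unnamed. The array design uses rn4 and the naming table GRCr8, so coordinates are given only for the start regions read from the RefSeq table. A probe was kept if well above background on at least 3 arrays, a gene was its brightest kept probe, and 30709 features were fitted in limma 3.58.1 (R 4.3.3), with log2 values computed here from the deposited intensities; the fit was also tested on simulated data. The members and lists were chosen with earlier results of these data known. Members were all named, and up to 4 genes of each further acid-base list by smallest p; other names were added after their values were seen. Same-numbered samples did not deviate together (correlations 0.02, -0.04 and -0.02), so the main fit has no block. Alternatives were other background corrections, scalings, filters, probe rules, variance models, array weights, blocks, and leaving out each array.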

Additional observations from a re-analysis of the deposited data

How the results depend on the processing

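The members, the named genes of the further acid-base lists, the median of the members, the difference of type A minus type B and the count of called features were recomputed under 19 other settings; marker lists, their genes and the spreads were not. No member was called under any of them, and 9 of the 10 members kept the sign of their log2 fold change in all 19. The exception was Car2, between -0.094 and 0.047 with 1 array left out, the highest without vehicle replicate 2. The median log2 fold change of the members stayed between -0.12 and 0.01, and the difference of type A minus type B between 0.06 and 0.38, the lowest without vehicle replicate 3. The number of features called by limma was 0 in the fit reported here, 5 with normexp background correction, 5 with a robust fit that models a trend in the variance, 3 with the slide as a block, 2 when all kept probes of a gene were averaged and 1 with a filter on all 6 arrays. It ranged from 0 to 3 when 1 array was left out, with 3 without treated replicate 2, 3 without vehicle replicate 2 and 2 without treated replicate 1. The replicate number as a block gave 0 features called, and changed no other call. Among the other genes named, 4 turned sign. Slc4a8 stood at -0.28 and Atp4a at 0.32 when their probes were averaged, since the dimmer probes lie on the other side of 0. With 1 array left out, Spink8 ranged from -0.046 (without treated replicate 1) to 0.66, Slc4a8 from -0.0097 (without vehicle replicate 3) to 0.12, and Oxgr1 from -0.15 to 0.0093 (without treated replicate 2, which is also its value with the slide as a block). Slc26a7 had no value under the filter on all 6 arrays. With 3 arrays per group the interval of Slc4a1 still includes a log2 fold change of 0.92.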
